A study of Mus musculus with 5 samples.

Results

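The MLL family and COMPASS subunits were described across 5 bulk RNA libraries of mouse haematopoietic stem cells (HSCs). The group was set by gene symbol and holds 10 genes of the 35976 in the count table: Kmt2a, Kmt2b, Kmt2c, Kmt2d, Kmt2e, Men1, Wdr5, Ash2l, Rbbp5 and Kdm6a. All 10 were rows of the table and all 10 passed the filter on low counts. Libraries were compared between 3 labelled Ythdf3-/- and 2 labelled WT, each made by Smart-seq2, a full-length cDNA method, from 30 bone marrow cells of a C57BL/6 mouse, sorted for CD150, c-kit and Sca-1 and against CD34 and lineage markers. YTHDF3 binds N6-methyladenosine, a modified base of mRNA, in the cytoplasm. The labels do not describe the knockout allele or the age of the mice, and the WT animals carry no named allele. The text of the series counts 2 knockout and 3 wild-type samples, the reverse of the sample labels, and says that each sample came from a different mouse.

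COMPASS complexes methylate lysine 4 of histone H3 (H3K4), a mark of active promoters and enhancers. In mammals the catalytic subunit is SETD1A or SETD1B, or one of KMT2A to KMT2D, and each of these sits on a shared core of WDR5, RBBP5, ASH2L and DPY30. KMT2A, the MLL protein, is needed to maintain HSCs and is broken by translocations in leukaemia, and menin, the product of Men1, tethers KMT2A and KMT2B to chromatin. KMT2C and KMT2D act mainly at enhancers, in complexes that also hold the H3K27 demethylase KDM6A (UTX), whose gene is X-linked.

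The counts of Ythdf3 itself went against the labels, except that the library labelled Ythdf3-/- 1 was the lowest of all. Libraries are therefore named here as labelled. Its counts were 2, 339 and 366 under the Ythdf3-/- label and 20 and 29 under the WT label. Total counts were 6357862, 9076806 and 7016670 under the Ythdf3-/- label and 16650134 and 8968162 under the WT label, so that 1 count was worth between 0.0601 and 0.157 CPM, the depth-scaled count. The HSC list held 14 genes, of which Cd48, Cd34 and Flt3 are given apart. Of the other 11 HSC genes, 10 or 11 exceeded 1 CPM in each library. The exceptions were Fgd5, at 2 counts in Ythdf3-/- 1 and at 5 in Ythdf3-/- 3, and Slamf1, which encodes the sort marker CD150, at 1 count in WT 2. Cd34, which encodes the marker sorted against, had 140.1, 2.203 and 244 CPM under the Ythdf3-/- label and 208 and 58.2 CPM under the WT label. Flt3 had 0.315, 0.220 and 57.4 CPM against 35.1 and 16.4 CPM, and Cd48 had 20.6, 0.331 and 0.285 CPM against 0.721 and 0 CPM. A pair of libraries stood apart. That labelled Ythdf3-/- 1 held 37701 CPM of 11 erythroid markers, mostly globin, where the other 2 of its label held 2163 and 1973 CPM and those labelled WT 2631 and 3044 CPM. It also held 1284 CPM of 8 B cell markers, against 218 and 95.9 CPM in the others of its label and 539 and 56.5 CPM under the WT label. The other was the library labelled WT 2: 12 mitosis genes summed to 133, 57.6 and 37.2 CPM under the Ythdf3-/- label, against 49.6 CPM in WT 1 and 741 CPM in WT 2. Of the sums of other cell types, those of the neutrophil list and the stromal and endothelial list overlapped between the labels. The megakaryocyte sums were all lower under the Ythdf3-/- label. The T and NK cell sums and the monocyte and macrophage sums were all higher there. Genes within each of these lists did not all do so. Among single genes, groups lay apart for 20.7% of all tested. The 8 neutrophil genes summed to 481, 316 and 704 CPM under the Ythdf3-/- label and 616 and 374 CPM under the WT label. Most of this was Prtn3. The 6 megakaryocyte genes summed to 155, 200 and 158 CPM against 287 and 210 CPM. The 7 T and NK cell genes summed to 93.1, 92.9 and 30.5 CPM under the Ythdf3-/- label, against 2.28 and 10.4 CPM under the WT label, carried by Nkg7, Lck and Klrb1c, while Cd3d, Cd3g and Ncr1 were at 0 in every library. The 8 monocyte and macrophage genes summed to 91.1, 63.9 and 217 CPM against 26.1 and 47.7 CPM. C1qc had 364, 298 and 259 counts against 10 and 0, but C1qb had 0, 280 and 242 against 12 and 425. C1qa had 213, 1 and 164 counts against 8 and 0, and Cd68 had 2, 0 and 860 against 393 and 2. Csf1r had counts only in WT 1, and Ccr2 was at 0 throughout. The 7 stromal and endothelial genes summed to 123, 51.1 and 142 CPM against 110.0 and 61.8 CPM, mostly Emcn and Pecam1, with Cdh5, Cxcl12 and Lepr at 0 throughout. In bulk libraries, fewer cells of a type and less RNA per cell cannot be told apart.

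The 10 messages divided into those well read in every library and those low in some. Kmt2a, Kmt2c, Kmt2d, Kmt2e and Men1 stood above 39 CPM in all 5 libraries. Kmt2b, Wdr5, Ash2l, Rbbp5 and Kdm6a each stood below 10 CPM in at least 1 library and above 50 CPM in another. Together the 10 genes took 1277, 1170 and 1936 CPM under the Ythdf3-/- label and 1419 and 895 CPM under the WT label, so the sums of the labels overlapped. No member passed the edgeR quasi-likelihood test between the labels (adjusted p = 0.9998 for each of the 10), where 0% of the 11146 genes tested passed. At an unadjusted p under 0.05 the members again gave 0 of 10, against 4.85% of all genes tested. DESeq2 called none of them and gave Kmt2b no adjusted p, while it called 4.59% of the 13025 genes it gave an adjusted p.

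**Figure D1:**
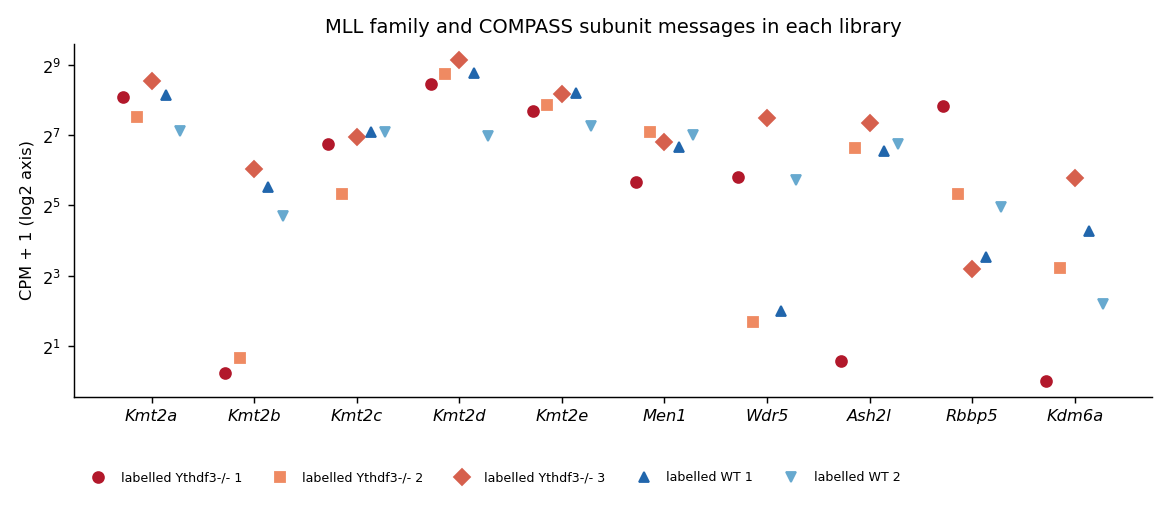
Each point is one library; the y axis gives CPM plus 1 on a log2 axis and the x axis the 10 genes, with the 3 libraries labelled Ythdf3-/- (red) left of the 2 labelled WT (blue). Kmt2a, Kmt2c, Kmt2d, Kmt2e and Men1 lie above 39 CPM in every library, while Kmt2b, Wdr5, Ash2l, Rbbp5 and Kdm6a each have a library below 10 CPM and another above 50 CPM.

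The methyltransferase genes are given first. Kmt2d (chromosome 15, 98831669 to 98871204, minus strand, mm10), which encodes an enhancer methyltransferase, was read 2263, 3905 and 3980 times in Ythdf3-/- 1, 2 and 3 as labelled, against 7268 and 1133 times in WT 1 and WT 2. On the CPM scale this is 356, 430.2 and 567 against 437 and 126. The library labelled WT 2 was the low one, and that labelled WT 1 lay inside the range of the other label. Taken as the Ythdf3-/- label over the WT label, the log2 fold change was 0.61 (SE 0.53, 95% interval -0.61 to 1.82). Leaving out the library labelled WT 2 gave 0.016, and leaving out WT 1 gave 1.70.

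Kmt2a (chromosome 9, 44803355 to 44881296, minus strand), which encodes MLL itself, had 1741, 1657 and 2624 counts under the Ythdf3-/- label and 4696 and 1234 under the WT label. Its levels of 274, 183 and 374 CPM overlapped those of 282 and 138 CPM, with the library labelled WT 2 again lowest. The log2 fold change was 0.32 (SE 0.49, 95% interval -0.80 to 1.44) and turned to -0.061 without the library labelled WT 2. Kmt2e (chromosome 5, 23434441 to 23504235, plus strand) encodes a divergent relative of the family that is not a COMPASS subunit and is needed for HSC function in mice. It had 207, 233 and 291 CPM under the Ythdf3-/- label and 293 and 153 CPM under the WT label. Its difference was the smallest of the 10 (log2 fold change 0.047, SE 0.44), and its sign turned without the library labelled WT 2 (-0.30) or Ythdf3-/- 3 (-0.082). Without strand, reads from 9.31% of the Kmt2e exon length cannot be told from those of Srpk2 on the opposite strand.

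Kmt2a, Kmt2d and Kmt2e thus had their lowest level in the same library, the one labelled WT 2. That library also had the highest mitosis sum, given above, and the lowest summed level of the 11 HSC genes. These summed to 2199 CPM in Ythdf3-/- 1, 2813 CPM in Ythdf3-/- 2 and 3338 CPM in Ythdf3-/- 3, against 2697 CPM in WT 1 and 1662 CPM in WT 2. The library labelled Ythdf3-/- 3, with the highest HSC sum, also held the highest level of 6 of the 10 members (Kmt2a, Kmt2b, Kmt2d, Wdr5, Ash2l and Kdm6a), and that labelled Ythdf3-/- 1 held the lowest level of 4 (Kmt2b, Men1, Ash2l and Kdm6a). The 11 HSC genes include Meis1 and Mecom, which are also on the list of KMT2A and menin targets below. Whether these sums bear on the members' levels was not tested.

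Kmt2c (chromosome 5, 25271798 to 25498783, minus strand), the partner of Kmt2d at enhancers, was the only member whose groups did not overlap. Its counts were 674, 354 and 855 under the Ythdf3-/- label and 2275 and 1214 under the WT label. This gave 106.0, 39.0 and 122 CPM, all below the 137 and 135 CPM of the libraries labelled WT. That difference, a log2 fold change of -0.71 (SE 0.68, 95% interval -2.27 to 0.85), did not pass the edgeR test. Leaving out Ythdf3-/- 2 gave -0.35 and leaving out Ythdf3-/- 3 gave -0.99. One member of 10 with groups apart compares with 20.7% of all genes tested, of which 11% lay apart in the same direction and 9.74% in the other. With 1 library left out the count of members apart was 2 without Ythdf3-/- 2, 3 without Ythdf3-/- 3, 4 without WT 1 and 2 without WT 2, where 33.3%, 33.3%, 52.6% and 47.4% of all genes lay apart. It stayed at 1 without Ythdf3-/- 1, against 34.4%.

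Kmt2b (chromosome 7, 30568858 to 30588726, minus strand), the closest relative of Kmt2a, was nearly missing from some libraries. Its counts were 1, 5 and 455 under the Ythdf3-/- label, in replicate order, against 750 and 222 under the WT label. The last of the Ythdf3-/- label, at 64.8 CPM, was the highest of all, above the 45.0 and 24.8 CPM of the libraries labelled WT. Where Kmt2b was well read, and as counts not corrected for length, Kmt2a had 5.77 times as many counts in the library labelled Ythdf3-/- 3, and 6.26 and 5.56 times as many in those labelled WT 1 and WT 2. The log2 fold change of Kmt2b was -0.78 with an SE of 2.32, and it became -6.61 without the library labelled Ythdf3-/- 3, -0.15 without Ythdf3-/- 1, -0.20 without Ythdf3-/- 2, -1.06 without WT 2 and -0.34 without WT 1.

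The division of counts among the 5 KMT2 genes does not depend on how libraries are scaled. Kmt2a took 29.0%, 20.6% and 26.4% of them under the Ythdf3-/- label and 23.6% and 23.9% under the WT label. Kmt2e took a similarly even 22.0%, 26.3% and 20.5%, against 24.5% and 26.5%. The most uneven was Kmt2b, with 0.0167%, 0.0623% and 4.57% under the Ythdf3-/- label and 3.78% and 4.29% under the WT label. Kmt2c and Kmt2d varied too. Kmt2d took 37.7%, 48.6% and 40.0% under the Ythdf3-/- label, against 36.6% in the library labelled WT 1 and 21.9% in that labelled WT 2 (95% Wilson interval 20.8 to 23.1). Kmt2c took 11.2%, 4.41% and 8.59%, against 11.5% and 23.5% (22.3 to 24.6 for the last). The ratio of Kmt2d to Kmt2c counts was 3.36, 11.0 and 4.65 under the Ythdf3-/- label and 3.19 and 0.933 under the WT label. Every library labelled Ythdf3-/- lay above both labelled WT in this ratio, but the library labelled WT 1 differed less from its nearest neighbour of the other label than from that labelled WT 2. The share of other gene ratios with groups apart was not computed. Among single genes on the CPM scale it was 20.7% of all tested, and Kmt2c is one of these. The intervals treat each count as an independent draw and leave out differences between libraries. Where PCR copies of 1 cDNA molecule are counted separately, they are too narrow even for counting error.

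**Figure D2:**
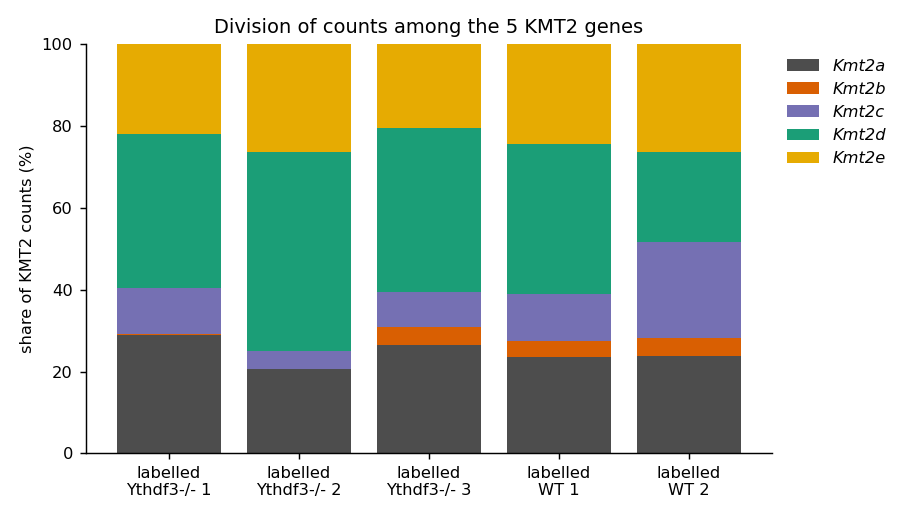
Bars show the percentage of each library's summed KMT2 counts that falls on each of the 5 genes, with the libraries labelled Ythdf3-/- left of those labelled WT. Kmt2a and Kmt2e keep similar shares, Kmt2c widens to 23.5% in the library labelled WT 2, and Kmt2b is hardly visible in the libraries labelled Ythdf3-/- 1 and 2.

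Every KMT2 complex of the COMPASS type shares the 3 core subunits on the list. Ash2l and Wdr5 were highest in the library labelled Ythdf3-/- 3, and Rbbp5 in that labelled Ythdf3-/- 1. Ash2l (chromosome 8, 25815996 to 25847694, minus strand) encodes the subunit that, with RBBP5, stimulates the methyltransferase. Its counts were 3, 898 and 1145 under the Ythdf3-/- label, against 1559 and 952 under the WT label. On the CPM scale the library labelled Ythdf3-/- 1 stood at 0.472, the value of 3 counts, and the other 4 lay between 93.6 and 163. Its log2 fold change of -0.29 (SE 1.48) turned to 0.33 with that library left out. Leaving out Ythdf3-/- 3 or WT 2 gave -1.07 and -0.12.

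Rbbp5 (chromosome 1, 132477365 to 132505659, plus strand), which bridges the methyltransferase and the core, had the opposite form. Its counts were 1459, 356 and 57 under the Ythdf3-/- label, in replicate order, against 174 and 267 under the WT label. The 229 CPM of the first compares with 39.2 and 8.12 CPM in the others of its label and 10.5 and 29.8 CPM under the WT label, so the groups overlapped. Its log2 fold change of 2.10 (SE 1.48, 95% interval -1.31 to 5.50), the largest of the 10, became 0.17 without the library labelled Ythdf3-/- 1. The ratio of Ash2l to Rbbp5 counts was 2.52 and 20.1 in the libraries labelled Ythdf3-/- 2 and 3 and 8.96 and 3.57 in those labelled WT, while the library labelled Ythdf3-/- 1 had 3 counts of Ash2l beside 1459 of Rbbp5. The erythroid and B cell sums of that library, given above, were the highest of the 5, and their part in the levels of Ash2l and Rbbp5 was not tested.

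Wdr5 (chromosome 2, 27515157 to 27536535, plus strand) encodes the WD40 protein that holds the catalytic subunit to the core. Its counts were 350, 20 and 1260 under the Ythdf3-/- label and 49 and 469 under the WT label. Each label thus held low and high libraries: 55.1, 2.203 and 179.6 CPM against 2.94 and 52.3 CPM. With all libraries the log2 fold change was 1.38 (SE 1.77); leaving out Ythdf3-/- 3, WT 1 or WT 2 gave -0.064, 0.44 and 4.71. Wdr5b (chromosome 16, 36041190 to 36043928), a related gene that is not among the 10, had 0, 204 and 0 counts under the Ythdf3-/- label and 12 and 0 under the WT label, so it was highest where Wdr5 was lowest. It did not pass the filter on low counts. The coding sequences of the pair are 76.4% identical over 984 aligned bases, and the longest run they share is 20 bases, shorter than a 150-base read. That run and its flanks are printed to show how far reads of the pair can be told apart (5′ to 3′, GENCODE M21 transcripts of GRCm38, bases 722 to 781 of the Wdr5 and 704 to 763 of the Wdr5b coding sequence; capitals mark the 8 bases that differ).
Wdr5: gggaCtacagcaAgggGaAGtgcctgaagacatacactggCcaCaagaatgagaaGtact
Wdr5b: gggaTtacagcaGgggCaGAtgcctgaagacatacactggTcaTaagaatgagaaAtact

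Dpy30, the core subunit not among the 10, was the even one. It had 566, 622 and 450 counts under the Ythdf3-/- label and 1271 and 812 under the WT label, or 89.0, 68.5 and 64.1 CPM against 76.3 and 90.5 CPM. Its log2 fold change was -0.27 (SE 0.73).

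Men1 (chromosome 19, 6334979 to 6340891, plus strand) encodes menin, which links KMT2A to its target promoters. Its counts were 314, 1238 and 788 under the Ythdf3-/- label and 1677 and 1137 under the WT label. Its 49.4, 136 and 112 CPM enclosed the 101 and 127 CPM of the libraries labelled WT, the library labelled Ythdf3-/- 1 being the low one. Its log2 fold change of -0.29 (SE 0.68) turned to 0.065 with that library left out, and leaving out Ythdf3-/- 2, WT 1 or WT 2 gave -0.60, -0.48 and -0.048.

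Kdm6a (chromosome X, 18162575 to 18279936, plus strand) was the member with the fewest counts. Its counts were 0, 75 and 379 under the Ythdf3-/- label and 305 and 32 under the WT label. A count of 0 in the library labelled Ythdf3-/- 1 allows up to 0.472 CPM, while the others of that label had 8.26 and 54.0 CPM and those labelled WT had 18.3 and 3.57 CPM. The label Ythdf3-/- therefore held both the lowest and the highest library. A log2 fold change of 0.84 had an SE of 2.67 and turned to -1.44 with Ythdf3-/- 3 left out. Leaving out Ythdf3-/- 1, WT 1 or WT 2 gave 1.46, 2.38 and 0.16.

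Uty, the Y-linked relative of Kdm6a, whose product has little demethylase activity, was even by comparison. It had 298, 277 and 214 counts under the Ythdf3-/- label and 266 and 242 under the WT label, which is 46.9, 30.5 and 30.5 CPM against 16.0 and 26.98 CPM. Its groups lay apart on the CPM scale, with the Ythdf3-/- label higher, as did those of 9.74% of all genes tested. The Y-linked gene Eif2s3y had 159, 1231 and 1025 counts under the Ythdf3-/- label and 1511 and 1515 under the WT label, and Ddx3y had 798, 371 and 381 against 888 and 60, so all 5 libraries held Y-linked RNA. Xist, which is transcribed from the inactive X chromosome, had 1, 148 and 15 counts against 11 and 9. The sex of the mice is not given in the labels. Kdm6a and Uty share more sequence than the Wdr5 pair: 82.9% of 3628 aligned coding bases are identical and the longest shared run is 61 bases, shown here because the near absence of one gene is read beside the presence of the other (bases 1206 to 1306 of the Kdm6a coding sequence on chromosome X and 1185 to 1285 of that of Uty on chromosome Y, 5′ to 3′, GENCODE M21 transcripts of GRCm38; capitals mark the 2 bases that differ).
Kdm6a: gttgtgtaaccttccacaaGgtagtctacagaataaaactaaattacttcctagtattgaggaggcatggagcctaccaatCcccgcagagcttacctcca
Uty: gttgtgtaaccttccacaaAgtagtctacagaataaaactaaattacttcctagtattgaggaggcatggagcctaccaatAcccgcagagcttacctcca
A full 150-base read of either coding sequence therefore covers at least 1 difference. How the authors treated reads that match several places is not given in the sources used here. Between Kmt2a and Kmt2b the longest shared coding run is 20 bases, and between Kmt2c and Kmt2d it is 37 bases.

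The spread of each gene over the 5 libraries was set beside that of tested genes of like level, those whose mean CPM lay within 1.5-fold. The SD of log2(CPM + 1) was 2.82 for Ash2l, where the median of 2321 like genes was 0.90 and 2.76% of them had a larger SD. It was 2.57 for Wdr5 and 2.78 for Kmt2b, larger than in most like genes, of which 14.3% and 16.3% exceeded them. Kmt2d, at 0.84, was also exceeded by only 12.6% of its 430 like genes. Kmt2e at 0.39 and Men1 at 0.58 were among the even genes of their level, with 75.4% and 75.0% of like genes more spread. Kmt2a (0.57), Kmt2c (0.75), Rbbp5 (1.85) and Kdm6a (2.18) lay nearer the middle, with 48.7%, 56.4%, 32.5% and 57.5% of like genes above them. These shares are a description and carry no test.

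**Figure D3:**
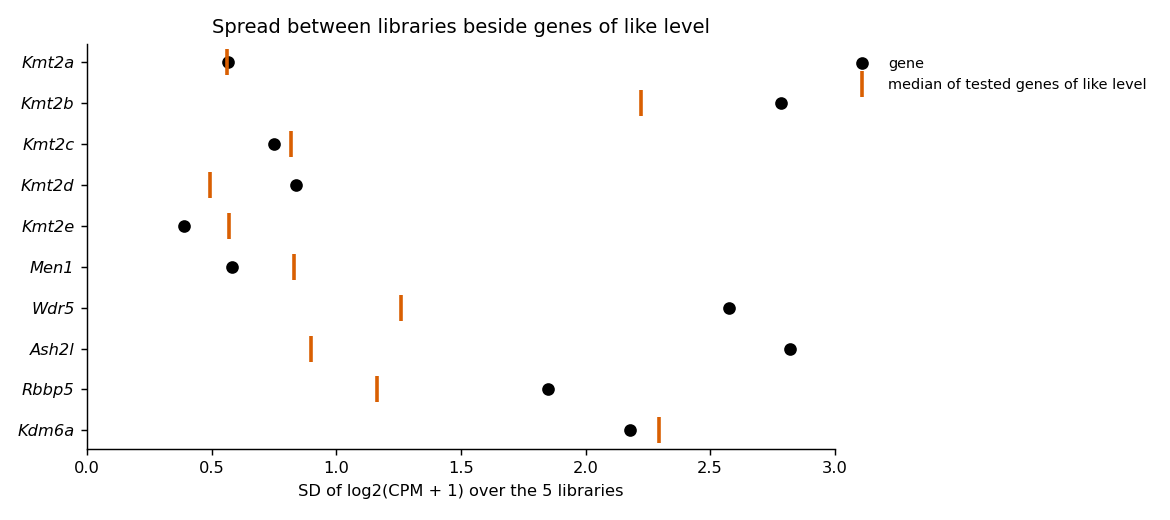
Black points give the SD of log2(CPM + 1) over the 5 libraries for each gene and orange bars the median SD of tested genes with a mean CPM within 1.5-fold. Ash2l (2.82 against 0.90) and Wdr5 lie far right of their bars, and Kmt2e and Men1 lie left of theirs.

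Levels were ranked between genes only per length, as CPM per kb of merged exons in GENCODE M21. By the median over the 5 libraries Men1 came first at 29.3 CPM per kb. Kmt2e followed at 22.3, Kmt2d at 21.6, Kmt2a at 16.4, Wdr5 at 14.5 and Ash2l at 11.0. Rbbp5 stood at 7.58, Kmt2c at 6.01, Kmt2b at 2.58 and Kdm6a at 0.986 CPM per kb. None of the 9 neighbouring pairs in this order kept it in all 5 libraries, and 16 of all 45 pairs did. The highest value of Kmt2c, 6.73 CPM per kb, lay under the lowest values of Kmt2a (8.25), Kmt2e (14.6) and Men1 (12.9) but not under that of Kmt2d (6.34). Exon length here spans all annotated isoforms, and the annotation behind the counts is not given in the sources used here. Merged exons ran from 3.596 kb (Wdr5) to 20.291 kb (Kmt2c). Gene counts do not show how evenly reads covered short and long messages, so the order may not be that of molecules.

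Over all 10 members, 6 had a fitted log2 fold change above 0 and 4 below 0, with a median of 0.18, beside a median of -0.063 and 52.2% below 0 for the 11146 genes tested. The split of 6 and 4 was the same under all 4 scalings tried. The SE was between 0.44 and 0.68 for Kmt2a, Kmt2c, Kmt2d, Kmt2e and Men1, and between 1.48 and 2.67 for the other 5. It rests on the spread between libraries that also enters the division of the members by level, so it is no separate observation. With 2 libraries against 3 there are 10 arrangements, and an exact permutation test of a single gene, two-sided, cannot go below p = 0.2.

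**Figure D4:**
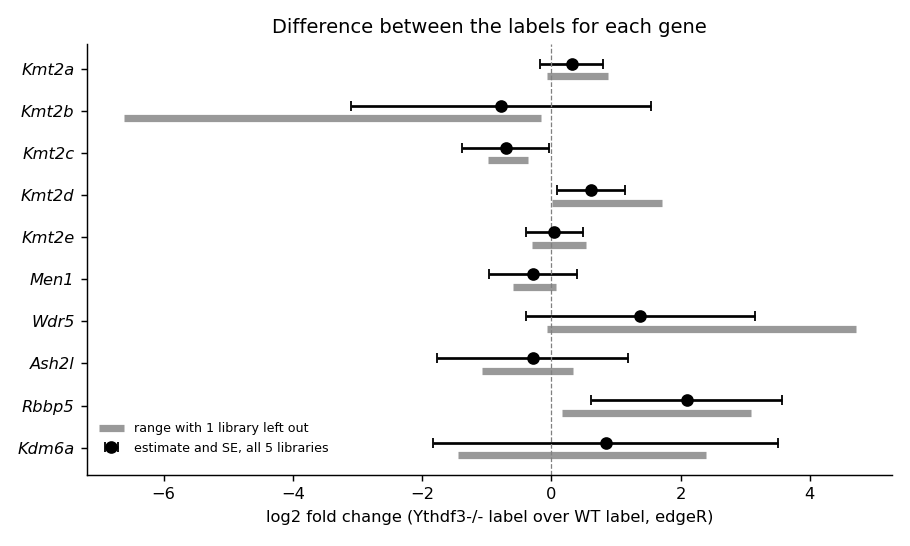
Black points and bars give the edgeR log2 fold change of the Ythdf3-/- label over the WT label and its SE for each gene; grey bars span the values with each library left out in turn. Grey bars cross or nearly touch 0 for most genes, and those of Kmt2b, Wdr5 and Kdm6a are the widest.

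Among the 13 other COMPASS subunits, all tested, 3 were fitted higher and 10 lower under the Ythdf3-/- label, and none passed the edgeR test. Their median log2 fold change was -0.56, and became 0.20 when Ythdf3-/- 1 and WT 2 were both left out, which leaves a single library under the WT label. Groups lay apart for 3 of the 13, a share near the 20.7% of all genes tested. Hcfc2, a host cell factor found in KMT2A and KMT2B complexes, had 0, 2 and 3 counts under the Ythdf3-/- label and 570 and 461 under the WT label (fitted log2 fold change -7.64, SE 2.51; edgeR adjusted p = 0.964). Ncoa6, a coactivator in KMT2C and KMT2D complexes, had 313, 762 and 350 counts against 4 and 34 (4.81, SE 1.91; edgeR adjusted p = 0.964). DESeq2 called both genes, with adjusted p of 0.000267 for Hcfc2 and 0.00711 for Ncoa6, and no other member of the list. That is 2 of the 13, beside 4.59% of the 13025 genes to which DESeq2 gave an adjusted p. The list was written with earlier results of these data known, and its share of calls was not tested. Cxxc1, the CpG-binding subunit of SETD1 complexes, had 411, 2 and 297 counts against 1820 and 1142. Its lowest library was that labelled Ythdf3-/- 2, where Ash2l had 898 counts, so low libraries were not shared by all subunits.

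H3K4 demethylases and partners gave 3 of 7 fitted higher and 4 lower, with a median of -0.034 that became 1.85 without the library labelled WT 2. Kdm5a, an H3K4 demethylase, had 1595, 940 and 764 counts against 1129 and 563, or 251, 104 and 109 CPM against 67.8 and 62.8 CPM. Every library labelled Ythdf3-/- lay above both labelled WT, and the log2 fold change was 1.15 (SE 0.67; edgeR adjusted p = 0.9998). It became 0.64 without the library labelled Ythdf3-/- 1. Kdm5a was the 1 gene of the 7 with groups apart, beside 9.74% of all genes tested in the same direction. Kdm5b, of the same family, had 482, 2363 and 755 counts against 2317 and 375, and Rcor1, the scaffold of the KDM1A complex, had 0, 436 and 144 against 11 and 892. Of the 6 genes on the H3K27 list, 3 were fitted higher and 3 lower. Eed, a PRC2 subunit, had 243, 275 and 312 counts against 523 and 1029. On the CPM scale its groups overlapped, at 38.2, 30.3 and 44.5 CPM against 31.4 and 115 CPM. Ezh1, an H3K27 methyltransferase, had 703, 1112 and 751 counts against 4474 and 394. Kdm6b, the demethylase related to Kdm6a, had 973, 1630 and 1414 counts against 4637 and 1132.

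**Figure D5:**
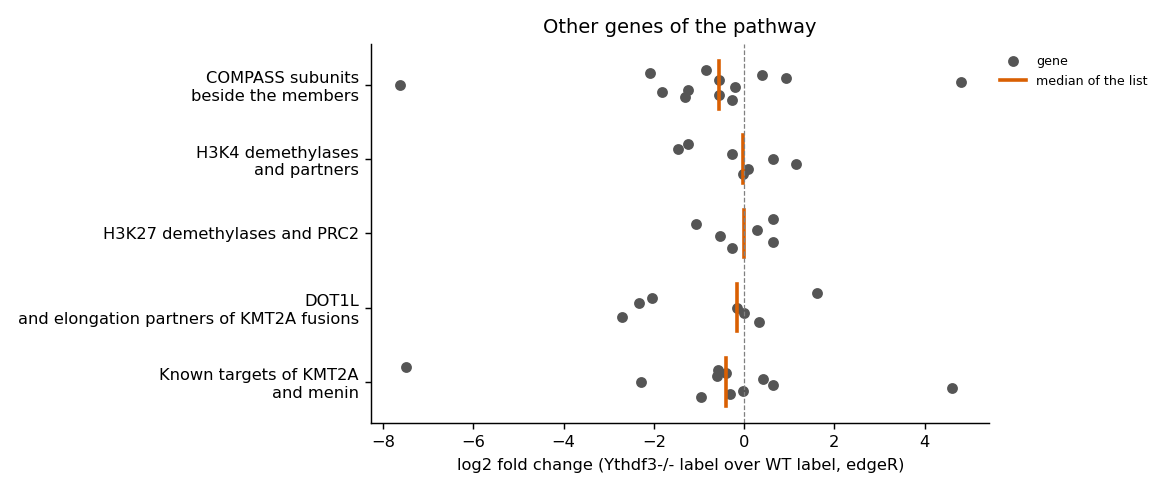
Each point is a tested gene of one list, placed by its edgeR log2 fold change of the Ythdf3-/- label over the WT label, and orange lines are list medians. Medians lie between -0.56 and 0.0083, and the outlying points are Hcfc2 (-7.64), Cdkn2c (-7.50), Ncoa6 (4.81) and Hoxa10 (4.61).

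DOT1L and the elongation factors that fuse with KMT2A in leukaemia gave 2 higher and 5 lower of 7 tested, with Mllt6 below the filter. Aff4, a scaffold of the super elongation complex, had 135, 1 and 124 counts against 736 and 495, and its relative Aff1 had 0, 62 and 3 against 156 and 124. Mllt1, an acetyl-lysine reader, rested on 1 library of the WT label, with 104, 0 and 0 counts against 5 and 584; its log2 fold change of -2.71 turned to 4.07 without the library labelled WT 2. Mllt3 was even, with 387, 383 and 536 CPM against 491 and 332 CPM and a log2 fold change of -0.0028 (SE 0.35). It was chosen after its values were seen.

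Of 11 genes known as targets of KMT2A or menin, 3 were fitted higher and 8 lower, and none passed the edgeR test. Their median of -0.40 became 0.33 without the library labelled WT 1. Meis1, a homeobox gene of stem cells, had 3022, 4382 and 4164 counts under the Ythdf3-/- label and 6458 and 2140 under the WT label. Its 475, 483 and 593 CPM all lay above the 388 and 239 CPM of the libraries labelled WT (log2 fold change 0.64, SE 0.35; edgeR adjusted p = 0.9998). Leaving out WT 2 gave 0.38 and leaving out WT 1 gave 0.98. Groups lay apart in this direction for 1 of the 11 genes and in the other for 1. The shares among all genes tested were 9.74% and 11%. Hoxa10 had 404, 9 and 136 counts against 34 and 1. Hoxa9, the best known of these targets and named for that reason outside the rule, had 140, 90.3 and 176 CPM against 170 and 89.2 CPM and a log2 fold change of -0.023 (SE 0.58). The CDK inhibitor gene Cdkn2c had 1, 1 and 0 counts against 319 and 142 (fitted log2 fold change -7.50, SE 2.77; edgeR adjusted p = 0.964), and DESeq2 called it (adjusted p = 0.0306). It was the 1 gene of the 11 that DESeq2 called, beside 4.59% of the 13025 genes to which DESeq2 gave an adjusted p. Fitted fold changes of genes near 0 under one label depend on the prior count and are no bounds.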

How the data were processed

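Smart-seq2 libraries were sequenced as paired 150-base reads, per the labels' protocols. The authors deposited a table of raw counts by gene symbol, with 1 column a library. Per the submitters' processing notes, mm10, HISAT2 2.2.1 and HTSeq 0.12.4 were used. The annotation, strand setting and treatment of multiply matching reads are unknown here. Groups follow the sample titles.

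The main test was edgeR's quasi-likelihood test (edgeR 4.0.16 in R 4.3.3; default expression filter by group, TMM factors, robust fit, no covariate), with Benjamini-Hochberg adjustment over all 11146 genes tested at 0.05. Standard errors and 95% intervals were derived from the F statistic. CPM are counts divided by the library total. The alternatives were DESeq2's, upper quartile and total-count scaling, leaving genes unfiltered, a stricter filter (10 counts and 1 CPM, each in at least 2 libraries), DESeq2 1.42.0, limma voom 3.58.1, a replicate block, and leaving libraries out. The edgeR script was also run on simulated counts with set changes. The outcome of that run is not reported here, and no result rests on it. Coordinates, exon lengths and coding sequences are from GENCODE M21 (GRCm38, which is mm10), 1-based. The members and lists were chosen with earlier results of these data known. All 10 members, Ythdf3, Xist, Ddx3y, Uty and Eif2s3y were named, marker genes where they bear on a library, and for each list the 3 tested genes with the smallest unadjusted p. Dpy30, Wdr5b, Mllt3 and Hoxa9 were named outside this rule.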

Additional observations from a re-analysis of the deposited data

How the results depend on the processing

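No member passed under any alternative run. Of all genes, 0 passed edgeR and limma voom, 541 had an unadjusted p under 0.05, 21 passed edgeR with no filter, 598 passed DESeq2, and between 0 and 1 passed with a library left out. DESeq2 called 2 of the 13 other COMPASS subunits and 1 of the 11 KMT2A targets, beside 4.59% of the 13025 genes it gave an adjusted p. The number of members with groups apart ran from 1 to 4 with a library left out. Signs of member log2 fold changes held under every scaling and filter. Limma voom turned Kmt2e to -0.012 and Kdm6a to -1.63, and moved Kmt2b to -4.25, Ash2l to -1.95 and Cxxc1 to -4.01. Without the libraries labelled Ythdf3-/- 1 and WT 2, values turned to -0.078 (Kmt2a), -0.22 (Kmt2e), 0.24 (Men1), 0.43 (Ash2l), 5.61 (Rcor1) and 0.19 (Eed), and list medians became 0.20 (COMPASS subunits), 2.07 (H3K4 demethylases) and -0.71 (KMT2A targets). With 1 library left out, ranges were -0.061 to 0.87 (Kmt2a), -0.30 to 0.54 (Kmt2e), -0.60 to 0.065 (Men1), -1.07 to 0.33 (Ash2l), -0.064 to 4.71 (Wdr5), -1.44 to 2.38 (Kdm6a), -0.060 to 1.70 (Kdm5b), -1.28 to 1.24 (Ezh1), -0.68 to 0.37 (Kdm6b), -2.44 to 5.06 (Rcor1), -1.74 to 0.23 (Eed) and -3.71 to 4.07 (Mllt1); list medians ran from -0.64 to 0.33 (KMT2A targets) and -0.83 to 1.85 (H3K4 demethylases). The cause of these shifts was not tested. Fits without a library labelled WT assume that the lone one varies like the others.

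Replicate numbers are shared by 2 pairs only, and the deviations of same-numbered libraries correlated at -0.0087 and 0.0036 across genes, so the numbers were not taken as pairing. With the replicate block 0 genes passed, values turned to -0.024 (Kmt2e), -0.22 (Wdr5), -3.35 (Kdm6a) and 0.020 (Ezh1), and moved further from 0 to -6.72 (Kmt2b), -3.66 (Ash2l), -1.16 (Kmt2c) and -4.70 (Cxxc1), and medians became -2.11 (DOT1L and elongation partners) and -0.0018 (KMT2A targets).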
